A study of Mus musculus with 27 samples.

Results

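Matrix metalloproteinases and the tissue inhibitors that block them were followed over 9 renal ischemia times. The 10 genes were chosen by symbol, and all 10 were found among the 19392 genes of the expression table: the gelatinases Mmp2 and Mmp9, the stromelysins Mmp3 and Mmp10, matrilysin Mmp7, collagenase Mmp13, the membrane-bound Mmp14, and the inhibitors Timp1, Timp2 and Timp3. Expression was measured by RNA-Seq in 27 left kidneys of C57BL/6 mice, 3 mice at each time, and every kidney was collected after 24 h of reperfusion. By the protocol in the labels, which is given for all samples, the right kidney was removed and the left renal pedicle was clamped on a heated platform, for 0 min in the sham group and for 16, 18, 20, 22, 24, 26, 28 or 30 min in the uIRIx groups (unilateral ischemia reperfusion with removal of the other kidney). No group of unoperated mice was compared. The age of the mice is not given in the sources used here. The comparisons addressed how the expression of these genes depended on ischemia time, from mild to severe injury.

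Matrix metalloproteinases are zinc enzymes that cut collagens, laminins, fibronectin, elastin and proteins at the cell surface. They are made as inactive precursors, opened by plasmin or by other members of the family, and blocked at their active site by the inhibitors TIMP-1 to TIMP-4. In the injured kidney they are known from tubular cells, interstitial cells and infiltrating leukocytes, where they act on the tubular basement membrane and on the interstitial matrix. Many of their genes, and the gene of TIMP-1, are known targets of AP-1, the pair of Fos and Jun proteins that responds to injury and growth signals.

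Mmp13, Mmp3, Mmp10 and Mmp7 lie in 1 cluster on mouse chromosome 9 (build GRCm38), together with Mmp12, Mmp1b, Mmp1a, Mmp8, Mmp27 and Mmp20. The cluster begins with Mmp13 at chr9:7272514-7283331 and ends with Mmp7 at chr9:7692090-7699585, and Mmp3 (chr9:7445822-7455975) and Mmp10 (chr9:7502352-7510240) lie between them, all 4 on the + strand. The other members lie apart: Mmp2 at chr8:92827291-92853420, Mmp9 at chr2:164940780-164955850, Mmp14 at chr14:54431612-54445364, Timp1 at chrX:20870166-20874735, Timp2 at chr11:118301069-118355740 and Timp3 at chr10:86300372-86349506. Timp1 lies inside Syn1 and Timp3 inside Syn3, each on the opposite strand, Timp2 overlaps Cep295nl on the same strand, and whether the reads were counted by strand is not given in the sources used here. Syn1 was at 0.02 to 0.6 FPKM (fragments per kilobase of transcript and per unit of mapped reads, a level that corrects for transcript length) and Syn3 at 0.62 to 4.15 FPKM over the 27 kidneys, and Cep295nl did not exceed 0.2 FPKM.

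The promoters of the 4 members of the cluster are shown because Mmp10 and Mmp7 had their highest levels at 30 min, Mmp3 was above sham in every kidney from 18 min on, and Mmp13 was lower at every ischemia time. Each is the 130 bases before the start given by RefSeq (GRCm38.p6), written 5′ to 3′, with capitals for the AP-1 letters TGACTCA or TGAGTCA, which are each other's reverse complement, and for TATAAA, and the Timp1 promoter is set below them as a member outside the cluster.
Mmp13 chr9:7272384-7272513, + strand: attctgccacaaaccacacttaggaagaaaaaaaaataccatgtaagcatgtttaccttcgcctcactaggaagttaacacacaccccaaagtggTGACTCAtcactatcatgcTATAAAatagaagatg
Mmp3 chr9:7445692-7445821, + strand: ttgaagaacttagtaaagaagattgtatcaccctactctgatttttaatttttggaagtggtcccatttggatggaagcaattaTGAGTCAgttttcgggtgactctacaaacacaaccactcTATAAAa
Mmp10 chr9:7502212-7502341, + strand: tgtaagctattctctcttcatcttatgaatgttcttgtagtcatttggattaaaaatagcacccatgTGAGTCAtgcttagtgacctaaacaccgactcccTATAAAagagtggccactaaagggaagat
Mmp7 chr9:7691960-7692089, + strand: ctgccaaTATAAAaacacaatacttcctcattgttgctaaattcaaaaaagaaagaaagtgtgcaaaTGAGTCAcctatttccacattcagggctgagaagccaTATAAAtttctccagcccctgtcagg
Timp1 chrX:20870036-20870165, + strand: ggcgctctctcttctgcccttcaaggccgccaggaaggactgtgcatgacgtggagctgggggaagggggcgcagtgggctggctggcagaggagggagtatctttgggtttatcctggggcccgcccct

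The AP-1 letters began 35 bases before the start in Mmp13, 46 in Mmp3, 63 in Mmp10 and 63 in Mmp7. The letters TATAAA began 16 bases before the start in Mmp13, 7 in Mmp3 and 29 in Mmp10, and at 123 and 26 bases before it in Mmp7. Of the members, 8 had a window in the RefSeq table, which spans 250 bases before the start to 50 after it. Mmp7 had a second window, from a start inside the gene, that held neither motif. The AP-1 letters stood in a window of 4 of these 8, the members of the cluster, and neither motif stood in the windows of Timp1, Timp2, Timp3 or Mmp14, with both strands searched. Of all 32851 windows of 300 bases, 1709 held the AP-1 letters (5.2%) and 4473 held TATAAA or its reverse complement (13.6%). The sequences are a description, and no match says only that these letters are not in the window.

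The levels below are FPKM as deposited by the authors, and a log2 fold change is the difference of quantile-normalized log2(FPKM + 1) between 2 groups of 3 kidneys, tested in limma with Benjamini-Hochberg adjustment over all 18188 genes tested. A gene was called where the absolute log2 fold change was above 1 and the adjusted p under 0.05. The pseudocount of 1 FPKM compresses the change of genes below about 1 FPKM. This holds for Mmp2, Mmp3, Mmp7, Mmp9, Mmp10 and Mmp13 in all or part of the kidneys. It also holds for Timp1 in the first and second sham kidneys (0.6 and 0.22 FPKM). With a pseudocount of 0.1 FPKM the log2 fold change of Timp1 at 16 min against sham was 3.29 in place of 2.43. All 10 members passed the filter on low values (above 0 FPKM in at least 3 kidneys).

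A pair of kidneys stood apart from their groups. The third kidney of 16 min lay near the sham kidneys, at -30.2 on the first principal component against -44.7 to -36.7 in sham and -11.4 and 2.66 in the other 16 min kidneys. The third kidney of 30 min had a summed fibroblast and mesenchyme marker level of 218.9 FPKM against 92.5 and 64.6 in its group, of which Acta2 made 176.95, 68.84 and 48.69 FPKM, and a loop of Henle and distal tubule sum of 2341 FPKM against 596.2 and 602.1. The proximal tubule markers summed to 3188 to 3500 FPKM in sham, 1178 to 1331 FPKM at 28 min and 733.9 to 826.4 FPKM at 30 min. In whole kidneys, fewer cells of a type and less RNA per cell cannot be told apart.

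After 28 and 30 min of ischemia, Timp1, Mmp14, Mmp3 and Mmp7 were called higher than in sham. Short of the fold threshold but with an adjusted p under 0.05 at both times, Mmp9 and Mmp10 were higher, and Mmp13 and Timp3 were lower. Mmp10, listed at 0 in sham, had a mean of 0.35 FPKM at 28 min and 0.997 FPKM at 30 min. At 28 min 4 of 10 members were called, all higher, beside 8.48% of all genes tested, and at 30 min the same 4 were called beside 10.7%. At the shorter times Timp1 alone was called in 5 comparisons, 1 of 10 members each: for 16 min beside 2.25% of all genes, for 20 min beside 2.51%, for 22 min beside 3.29%, for 24 min beside 3.12% and for 26 min beside 3.77%. Timp1 and Mmp3 were called at 18 min, 2 of 10 beside 3.06%. With the adjusted p under 0.05 alone and no fold threshold, 3 of 10 members passed at 16 min, where 19.0% of all genes did, and 3 passed at 22 min, where 28.8% did. The comparisons of 18, 20, 24 and 26 min had 4 members each, beside 27.8%, 22.8%, 28.3% and 30.1% of all genes, that of 28 min had 8 beside 48.2%, and that of 30 min had 9 beside 52.3%. The median log2 fold change of the members was 0.25 at 16 min, 0.43 at 28 min and 0.75 at 30 min, where that of all genes was -0.0028, 0 and 0.00077. Mmp2 passed in no comparison. All these comparisons share the 3 sham kidneys.

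**Figure D1:**
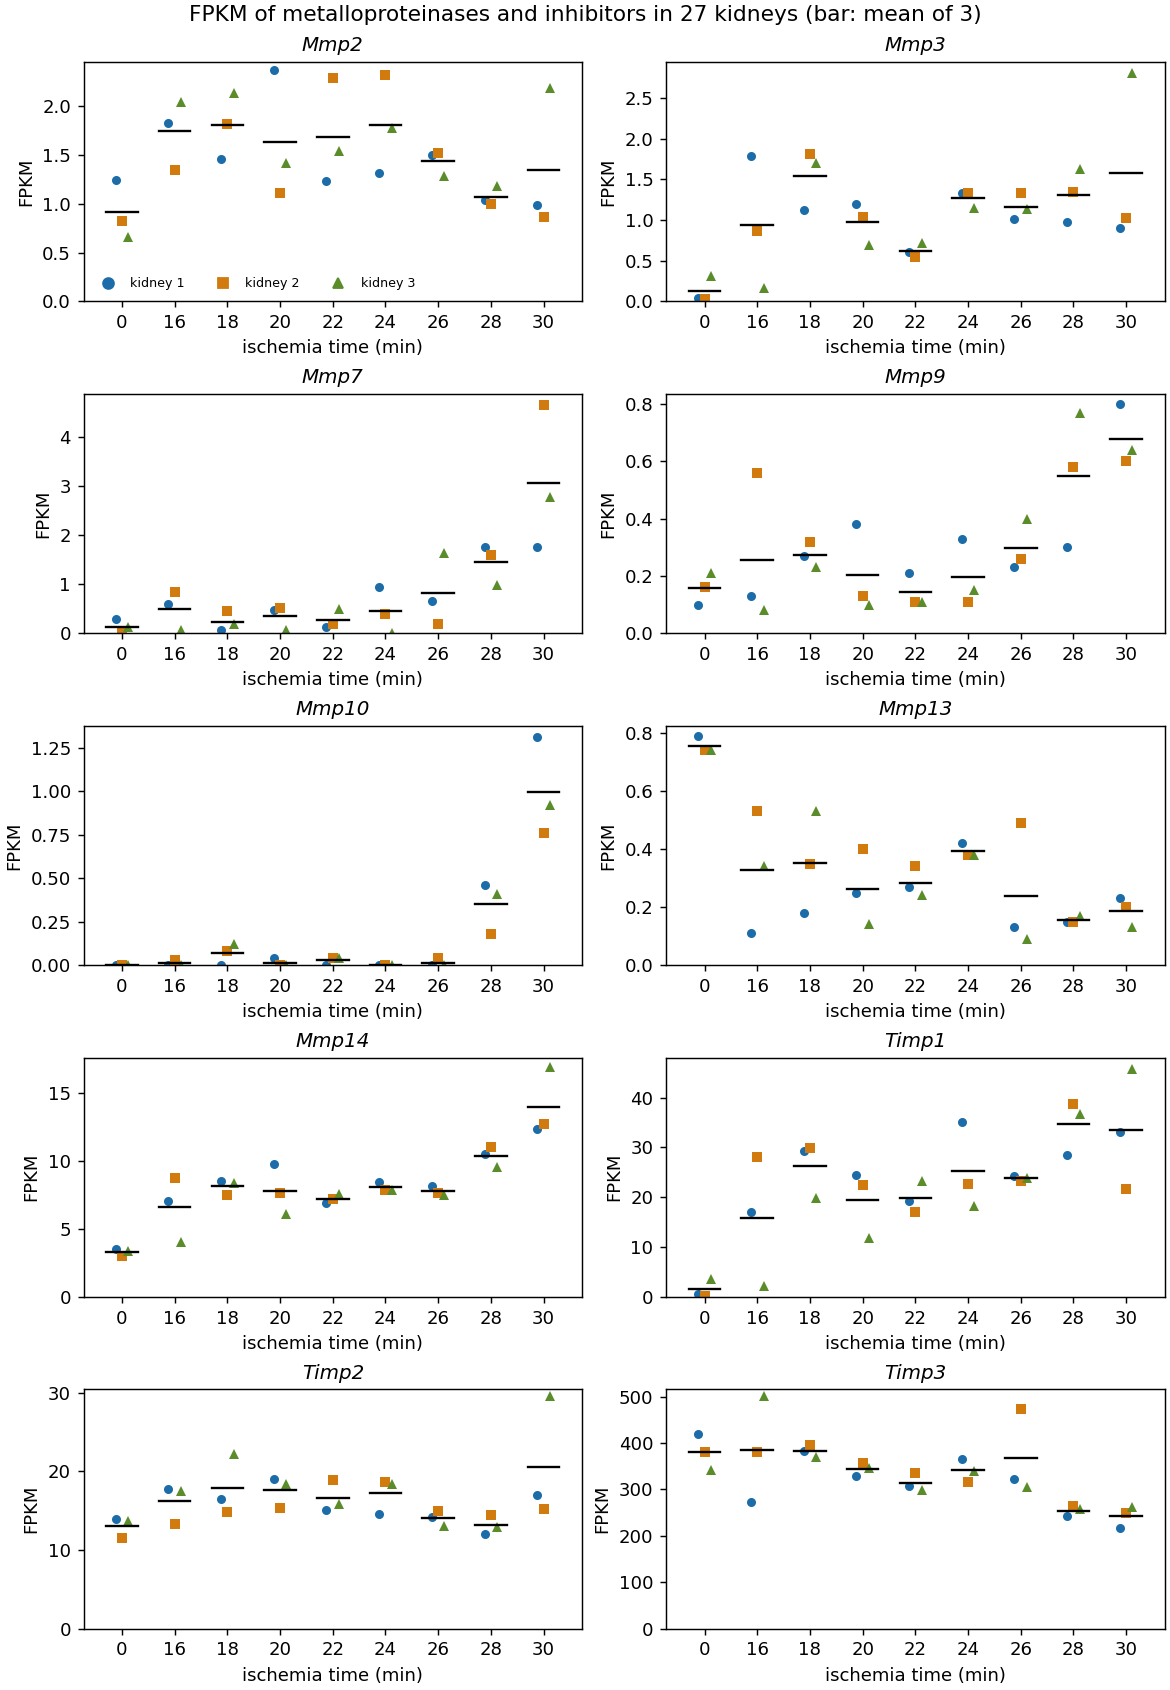
FPKM of the 10 genes (y axis, from 0, a scale of its own in each panel) in every kidney against ischemia time in min (x axis), with 1 symbol per kidney of a time and a bar at the mean of 3. Mmp10 stayed at or below 0.12 FPKM up to 26 min and lay between 0.76 and 1.31 FPKM at 30 min, and the third kidney of 16 min had a Timp1 level of 2.23 FPKM, within the range of the sham kidneys.

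Mmp14 (MT1-MMP) is anchored in the cell membrane, cuts fibrillar collagen and opens the precursor of MMP-2 there. It was the most abundant metalloproteinase among the members, with 3.56, 2.98 and 3.38 FPKM in the sham kidneys. At 16 min it was at 7.09, 8.76 and 4.06 FPKM, and from 18 to 26 min at 6.12 to 9.76 FPKM in 15 kidneys, so that every ischemic kidney was above every sham kidney. At 28 min the kidneys had 10.52, 11.03 and 9.56 FPKM and at 30 min 12.35, 12.76 and 16.93 FPKM. The 30 min kidneys were all above the 28 min kidneys, and those of 28 min above all but 1 kidney of the shorter times. Against sham the log2 fold change was 0.65 ± 0.16 (SE) at 16 min, with a limma adjusted p of 0.0081, 0.80 to 0.96 from 18 to 26 min, 1.25 ± 0.16 at 28 min (adjusted p = 2.7e-06) and 1.67 ± 0.16 at 30 min (adjusted p = 4.0e-08). At 16 min it did not pass in a fit with sham alone (limma adjusted p = 0.16) or without the second 16 min kidney (0.46, adjusted p = 0.070). The steps from 26 to 28 min (0.36) and from 28 to 30 min (0.42) had limma adjusted p-values of 0.12 and 0.091 and were not called.

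Mmp3 and Mmp10, stromelysin-1 and stromelysin-2, cut proteoglycans, laminin and fibronectin and can open the precursors of collagenases and of MMP-9. In the cluster Mmp1a lies between them, and their levels moved at different ischemia times. Mmp3 was at 0.04, 0.03 and 0.31 FPKM in sham. It was at 1.79, 0.86 and 0.17 FPKM at 16 min, where the third kidney lay within the range of sham, and at 1.12, 1.81 and 1.7 FPKM at 18 min. From 20 to 26 min it was at 0.54 to 1.33 FPKM, so that all kidneys beyond 16 min were above sham. At 28 min it was at 0.97, 1.34 and 1.62 FPKM, and at 30 min at 0.9, 1.03 and 2.8 FPKM, the highest being the kidney with the high mesenchyme markers. Its log2 fold change against sham was 1.10 ± 0.24 at 18 min (limma adjusted p = 0.0021), 1.04 ± 0.24 at 28 min (adjusted p = 0.0012) and 1.11 ± 0.24 at 30 min (adjusted p = 5.5e-04), while 22 min gave 0.50 ± 0.24 (adjusted p = 0.13). All 3 calls lay near the fold threshold. Without the third 30 min kidney the value at 30 min was 0.81, with a limma adjusted p of 0.0056. The value at 28 min was 0.94 without the third 28 min kidney, 0.98 without the first or the second sham kidney and 0.98 in a fit of these groups alone, each under the threshold.

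Mmp10 was listed at 0 in all 3 sham kidneys and in 14 of the 27 kidneys. Up to 26 min it did not exceed 0.12 FPKM in any kidney. It was at 0.46, 0.18 and 0.41 FPKM at 28 min and at 1.31, 0.76 and 0.92 FPKM at 30 min, so that the 28 min kidneys were all above the shorter times and the 30 min kidneys all above 28 min. Mmp10 had a log2 fold change of 0.43 ± 0.072 from 26 to 28 min and 0.54 ± 0.072 from 28 to 30 min, with limma adjusted p-values of 4.0e-04 and 1.8e-04, both below the fold threshold. In a fit of 28 and 30 min alone the second step had a limma adjusted p of 0.080. Against sham the log2 fold change of Mmp10 was 0.99 ± 0.072 at 30 min (limma adjusted p = 1.1e-09), just short of the threshold. In a fit of sham and 30 min alone it was 0.93 (limma adjusted p = 6.7e-04). Without the third 30 min kidney it was 1.03 (adjusted p = 5.8e-09) and was called. With a pseudocount of 0.1 FPKM the steps from 26 to 28 min and from 28 to 30 min were 2.01 and 1.25 and both were called. Between 26 and 28 min 0 of 10 members were called with a pseudocount of 1 FPKM, beside 1.50% of all genes, and by the adjusted p alone Mmp10 was the 1 member that passed, beside 19.3%. Between 28 and 30 min 0 of 10 were called (1.05% of all genes), and Mmp10 and Timp2 passed by the adjusted p alone (13.2%). In limma 4 members had an unadjusted p under 0.05 in each of these steps. Of all 18188 genes tested, 5635 did in the first step and 4872 in the second. The members were Mmp9, Mmp10, Mmp14 and Timp3 in the first, and Mmp7, Mmp10, Mmp14 and Timp2 in the second.

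Mmp7 (matrilysin) is a small secreted enzyme of epithelial cells that sheds E-cadherin and other surface proteins and is known in the kidney from injured tubules. In sham it was at 0.28, 0 and 0.13 FPKM. The kidneys of 16 to 24 min ranged from 0 to 0.95 FPKM and overlapped sham, and those of 26 min were spread from 0.19 to 1.64 FPKM. At 28 min Mmp7 was at 1.75, 1.6 and 0.99 FPKM and at 30 min at 1.75, 4.64 and 2.77 FPKM, above every sham kidney. The log2 fold change against sham was 0.59 ± 0.29 at 26 min (limma adjusted p = 0.14), 1.11 ± 0.29 at 28 min (adjusted p = 0.0035) and 1.76 ± 0.29 at 30 min (adjusted p = 3.6e-05). The step from 28 to 30 min (0.65) had a limma adjusted p of 0.15. Mmp7 overlaps an antisense transcript, AV064505, in the annotation.

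Mmp13, the main interstitial collagenase of the mouse, was lower in the ischemic kidneys. It was at 0.79, 0.74 and 0.74 FPKM in sham, and all 24 ischemic kidneys were below all 3 sham kidneys. The ischemic kidneys had 0.11, 0.53 and 0.34 FPKM at 16 min, between 0.09 and 0.53 FPKM from 18 to 26 min, 0.15, 0.15 and 0.17 FPKM at 28 min and 0.23, 0.2 and 0.13 FPKM at 30 min. Its log2 fold change was -0.54 ± 0.11 at 16 min (limma adjusted p = 0.0018), -0.70 ± 0.11 at 28 min (adjusted p = 2.1e-05) and -0.68 ± 0.11 at 30 min (adjusted p = 2.2e-05), and it passed by the adjusted p at each of the 8 times but never reached the fold threshold. Fitted with sham alone, 16 min had a limma adjusted p of 0.085. With a pseudocount of 0.1 FPKM it was between -1.9 and -1.06 and was called at each of the 8 times. Its promoter holds the same AP-1 letters as those of Mmp3, Mmp10 and Mmp7, printed above.

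Mmp2 and Mmp9 are the gelatinases, which cut denatured collagen and the collagen IV of basement membranes, and are known from mesenchymal cells and from neutrophils and macrophages respectively. Mmp2 was at 1.25, 0.83 and 0.66 FPKM in sham, at 1.83, 1.35 and 2.05 FPKM at 16 min and at 1.11 to 2.37 FPKM from 18 to 26 min. It was at 1.04, 1 and 1.18 FPKM at 28 min and at 0.99, 0.87 and 2.19 FPKM at 30 min, within the range of sham except for the last kidney. The highest log2 fold change against sham was 0.40 ± 0.19 at 24 min, with a limma adjusted p of 0.13, and the value at 28 min was 0.04 ± 0.19 with a 95% interval of -0.36 to 0.44.

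Mmp9 was at 0.1, 0.16 and 0.21 FPKM in sham and at 0.08 to 0.56 FPKM from 16 to 26 min, where the kidneys of 18 and 26 min were above sham and those of the other times overlapped it. At 28 min it was at 0.3, 0.58 and 0.77 FPKM and at 30 min at 0.8, 0.6 and 0.64 FPKM, above every sham kidney. In limma its log2 fold change was 0.40 ± 0.12 at 28 min (limma adjusted p = 0.0082) and 0.51 ± 0.12 at 30 min (adjusted p = 0.0013), below the fold threshold. Without the third 28 min kidney the value at 28 min was 0.29, with a limma adjusted p of 0.067. A summed level of 7 neutrophil markers was 5.49 to 11.9 FPKM in sham, 4.15 to 12.2 FPKM from 16 to 26 min, 15.3 to 19.2 FPKM at 28 min and 22.7 to 30.5 FPKM at 30 min. Of these markers 0 of 7 were called at 28 min against sham, where 8.48% of all genes were. At 30 min 2 of 7 were called, both higher, where 5.14% of all genes were called higher. Between 26 and 28 min 2 of 7 were called higher, and between 28 and 30 min 1 of 7. In these steps 1.50% and 1.05% of all genes were called in either direction. Mpo was listed at 0 in every kidney of 20 to 30 min. Of the sum at 28 min, S100a8 made 6.09, 5.08 and 3.26 FPKM and S100a9 made 7.42, 5.21 and 5.89 FPKM. In sham S100a8 was at 0.55, 3.37 and 3.17 FPKM and S100a9 at 1.46, 3.08 and 3.94 FPKM. Ly6g went the other way at 28 min, with 0.06, 0.07 and 0.07 FPKM against 0.23, 0.64 and 0.28 FPKM in sham. At 30 min it was at 0.2, 0.2 and 0.28 FPKM. The part of neutrophils in the Mmp9 level was not tested.

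**Figure D2:**
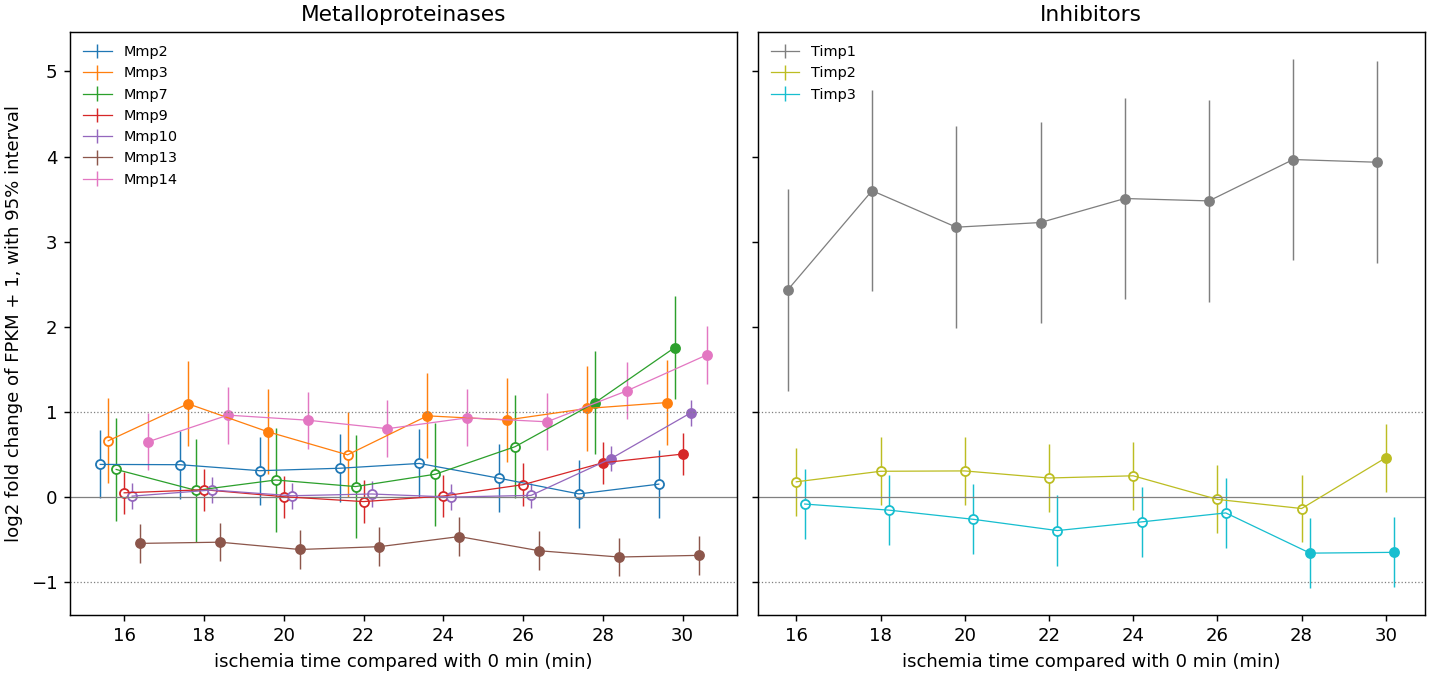
Log2 fold change of FPKM + 1 against the 0 min kidneys (y axis) at each ischemia time in min (x axis) for the metalloproteinases (left) and the inhibitors (right), with 95% intervals from limma, filled points where the adjusted p was under 0.05, and dotted lines at the fold threshold of 1 in each direction. Timp1 is past the threshold at all 8 times, while Mmp7 and Mmp14 passed it at 28 and 30 min and Mmp13 lies below 0 throughout.

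Timp1, the inducible inhibitor, gave the widest difference of the 10 genes. It was at 0.6, 0.22 and 3.67 FPKM in sham, where the third kidney was the highest. At 16 min it was at 17.09, 28.14 and 2.23 FPKM, so that the groups overlapped. At 18 min it was at 29.23, 29.8 and 19.9 FPKM, and from 20 to 26 min 12 kidneys had 11.78 to 35.13 FPKM, all above sham. At 28 min it was at 28.4, 38.78 and 36.82 FPKM, and at 30 min at 33.12, 21.71 and 45.77 FPKM, a range that overlapped those of every time from 18 min on. The means were 1.497 ± 1.892 (SD, n = 3) FPKM in sham, 15.8 ± 13 at 16 min, 34.7 ± 5.5 at 28 min and 33.5 ± 12 at 30 min. The log2 fold change against sham was 2.43 ± 0.57 (SE) at 16 min (limma adjusted p = 0.0055), 3.60 at 18 min, 3.96 ± 0.57 at 28 min (adjusted p = 9.4e-06) and 3.93 ± 0.57 at 30 min (adjusted p = 7.2e-06). The step from 26 to 28 min was 0.49 ± 0.57 and that from 28 to 30 min -0.03 ± 0.57, with limma adjusted p-values of 0.64 and 1. The 16 min call rested on the fit over all groups: fitted with sham alone it had a limma adjusted p of 0.19, without the second 16 min kidney the log2 fold change was 1.80 (adjusted p = 0.05015), and without the third 16 min kidney it was 3.36 (adjusted p = 2.4e-05).

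Timp3 is bound to the matrix and also blocks ADAM proteinases such as ADAM17. It was by far the most abundant member, at 418.6, 379.54 and 341.34 FPKM in sham and at 271.96 to 501.18 FPKM from 16 to 26 min. At 28 min it was at 242.67, 263.23 and 257.03 FPKM and at 30 min at 217.68, 249.64 and 262 FPKM, below every kidney of the shorter times. The log2 fold change against sham was -0.66 ± 0.20 at 28 min and -0.65 ± 0.20 at 30 min, with limma adjusted p-values of 0.0091 and 0.0090, short of the fold threshold. The proximal tubule marker sum was also lower at these times, as given above, and its part in the Timp3 level was not tested.

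Timp2, which takes part in the opening of pro-MMP-2 by MT1-MMP as well as in its inhibition, was at 13.91, 11.57 and 13.72 FPKM in sham and at 13.04 to 22.25 FPKM from 16 to 26 min. It was at 12.1, 14.5 and 12.92 FPKM at 28 min and at 17, 15.22 and 29.54 FPKM at 30 min. The log2 fold change of 30 min was 0.46 ± 0.19 against sham and 0.60 ± 0.19 against 28 min, with limma adjusted p-values of 0.049 and 0.044. Without the third 30 min kidney these were 0.17 and 0.30, with limma adjusted p-values of 0.41 and 0.32, so that both rested on the kidney with the high mesenchyme sum. Of the 6 fibroblast and mesenchyme markers, 2 were called higher and 1 lower at 30 min against sham, where 5.14% and 5.59% of all genes were. The part of these markers in the Timp2 and Mmp2 levels was not tested. Among the 10 members this kidney was the highest of its 3 in 6 (Mmp2, Mmp3, Mmp14, Timp1, Timp2 and Timp3).

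**Figure D3:**
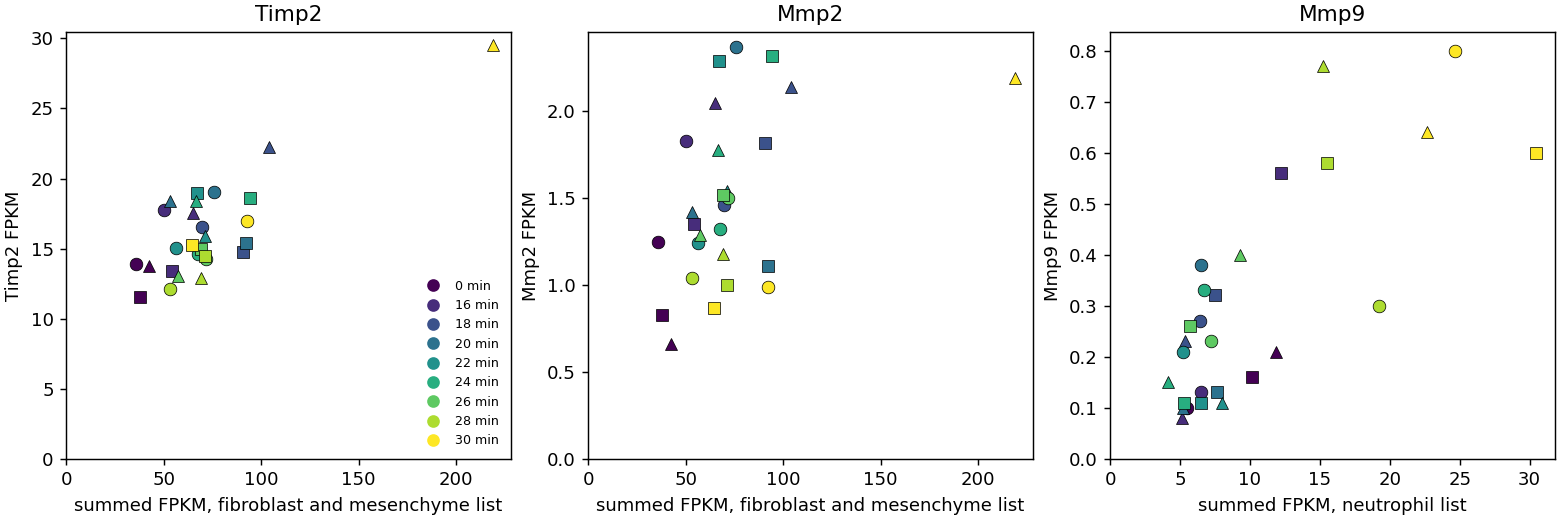
Timp2 and Mmp2 FPKM (y axes) against the summed FPKM of 6 fibroblast and mesenchyme markers, and Mmp9 FPKM against the summed FPKM of 7 neutrophil markers (x axes), with 1 symbol per kidney (circle, square and triangle for kidneys 1, 2 and 3), coloured by ischemia time. The third 30 min kidney, at 218.9 FPKM of the mesenchyme sum, has the highest Timp2 level, 29.54 FPKM, and all kidneys of 28 and 30 min lie above 15 FPKM of the neutrophil sum.

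Because FPKM is per length, the inhibitors could be set side by side. Timp3 held 95.1% to 97.0% of the summed FPKM of Timp1 to Timp4 in sham and 77.7% to 87.1% at 30 min, and Timp4 did not exceed 0.22 FPKM in any kidney. Timp1 held 0.139%, 0.0562% and 1.02% of the sum in the sham kidneys. Its share was 5.57%, 6.66% and 0.428% at 16 min, 3.12% to 8.45% in the 15 kidneys of 18 to 26 min, 10.03%, 12.25% and 12% at 28 min and 12.4%, 7.57% and 13.6% at 30 min. The mean share was 0.406% ± 0.536 (SD, n = 3) in sham, 6.09% ± 1.33 at 26 min, 11.4% ± 1.22 at 28 min and 11.2% ± 3.17 at 30 min. Every kidney of the times from 18 to 30 min was above all 3 sham kidneys, and all 28 min kidneys were above all 26 min kidneys. In the two-sided exact permutation test, 3 kidneys against 3 cannot give a p below 0.1. That value was reached at each of these times and between 26 and 28 min (adjusted p = 0.11 over 9 tests), and 16 min gave an exact p of 0.2.

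**Figure D4:**
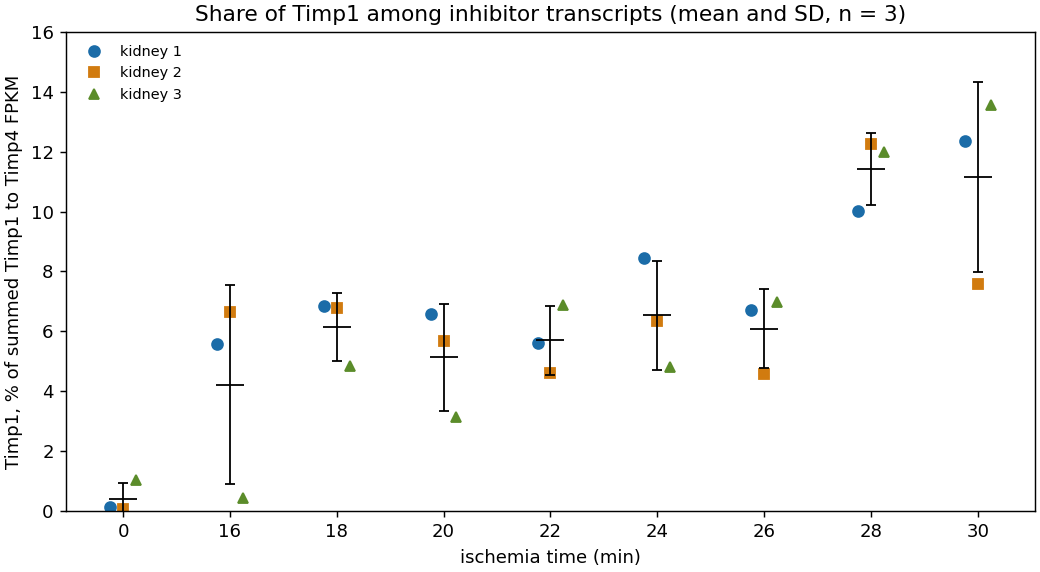
Share of Timp1 in the summed FPKM of Timp1 to Timp4, in percent (y axis, from 0), for each kidney against ischemia time in min (x axis), with the mean and SD of 3 kidneys in black. The share lies at or below 1.02% in sham, between 3.12% and 8.45% from 18 to 26 min and between 7.57% and 13.6% at 28 and 30 min.

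Within the range from 16 to 26 min no step was detected. Between neighbouring times from 16 to 26 min, and between 16 and 26 min, 0 of 10 members and 0% of all 18188 genes were called in limma. By an unadjusted limma p under 0.05, 0 of 10 members passed in each of these comparisons. Of all genes, 447 to 1100 passed between neighbouring times and 1717 between 16 and 26 min. The slope per minute over these 6 times gave 0 of 10 members at an adjusted p under 0.05, beside 0.0110% of all genes. By an unadjusted p under 0.05 the slope gave 0 of 10 members, beside 1514 of all 18188 genes. Ordered by mean level, Mmp14 and Timp1 each differed at 1 of 8 neighbouring ranks, that between sham and the next lowest time, 16 min. Mmp13 differed at 1 of 8, between sham and the next highest time, 24 min (limma adjusted p = 0.0034). Mmp10 differed at 2 of 8, between 30 and 28 min and between 28 min and the next, 18 min (limma adjusted p = 7.0e-04). In the other 6 members 0 of 8 neighbouring ranks differed, so their order between adjacent times is not established.

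Of 16 further family members 15 were in the table and 14 could be tested, and at 30 min 0 of 14 were called against sham, with a median log2 fold change of 0.38 (0.00077 over all genes). By the adjusted p alone 7 of 14 were higher and 1 lower at 30 min, and 3 higher and 1 lower at 28 min. Of all genes tested 52.3% passed by the adjusted p in either direction at 30 min and 48.2% at 28 min. The next were picked after their values were seen. Mmp15, a second membrane-bound enzyme, was at 0.74, 0.66 and 0.72 FPKM in sham, 1.35, 0.74 and 0.8 FPKM at 28 min and 2.72, 2.88 and 2.41 FPKM at 30 min, so that 1 kidney of 28 min was level with the highest of sham, and its log2 fold change at 30 min was 0.997 (limma adjusted p = 3.3e-06), just under the threshold. Mmp8, the collagenase of neutrophils and a neighbour of Mmp10 in the cluster, was at 0, 0.03 and 0.03 FPKM in sham, 0.11, 0.07 and 0.28 FPKM at 28 min and 0.23, 0.88 and 0.66 FPKM at 30 min. Mmp27, next to Mmp8, was listed at 0 in sham and was at 0.23, 0.2 and 0.23 FPKM at 28 min and at 0.55, 0.3 and 0.15 FPKM at 30 min. Mmp12, the macrophage elastase, lies between Mmp13 and Mmp3 and was at 0.58, 0.14 and 0.21 FPKM in sham. It was highest at 24 min, at 1.48, 2.32 and 2.26 FPKM, above every sham kidney, and was at 0.9, 0.53 and 0.78 FPKM at 30 min. Its log2 fold change against sham was 0.71 at 26 min (limma adjusted p = 0.021) and 0.36 at 30 min (adjusted p = 0.19). Of the other inhibitors Timp4, Reck and A2m, 0 of 3 were called at 30 min, and Reck, a membrane-anchored inhibitor, had a log2 fold change of -0.39 (limma adjusted p = 0.0086).

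Of 13 genes tested that open the precursors or control that step, 3 were called higher at 30 min against sham, Plaur and Plat among them, and 0 lower. Of all genes 5.14% were called higher and 5.59% lower. By the adjusted p alone 6 of the 13 were higher and 2 lower, beside 52.3% of all genes in either direction. The 2 lower were Plau (urokinase), at -0.64 (limma adjusted p = 0.024), and Bsg, at -0.56 (adjusted p = 5.3e-08). Plaur, the urokinase receptor, was at 2.11, 2.09 and 4.64 FPKM in sham, 12.05, 13.11 and 24.43 FPKM at 26 min, 41.8, 42.33 and 54.93 FPKM at 28 min and 41.98, 39.72 and 46.48 FPKM at 30 min. Its kidneys of 28 and 30 min were all above those of sham and 26 min and overlapped each other, with a log2 fold change of 3.45 ± 0.43 at 30 min (limma adjusted p = 1.1e-06), and it was also called between 26 and 28 min. Plat, the tissue plasminogen activator, had a log2 fold change of 1.55 at 30 min.

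Among ADAM and ADAMTS enzymes, relatives of the metalloproteinases that shed surface proteins or cut proteoglycans, 4 of 15 were called higher at 30 min, where 5.14% of all genes were, and 1 lower, where 5.59% were. Adam8, a sheddase of leukocytes, had a log2 fold change of 2.95, Adamts1 of 2.38 and Adam12 of 1.88. Adamts15 was lower by -1.65 ± 0.19 (limma adjusted p = 4.0e-07), at 6.03, 4.23 and 4.71 FPKM in sham and at 1.11, 1.05 and 0.96 FPKM at 30 min. Adam12 was at 0.31 to 0.43 FPKM in sham and at 0.89 to 2.21 FPKM at 16 min, where all 3 kidneys were above sham.

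Of 20 substrates, 15 were called higher at 30 min and 0 lower, 13 and 1 at 28 min, and 5 and 0 at 16 min. Of all genes 5.14% were called higher at 30 min, 4.27% at 28 min and 1.28% at 16 min. Spp1 (osteopontin), cut by MMP-3 and MMP-7, went from 776.22, 1132.09 and 1704.76 FPKM in sham to 17181.72, 17223.22 and 20046.66 FPKM at 30 min, a log2 fold change of 4.21. Sdc1 (syndecan-1) and Hbegf, surface proteins that metalloproteinases shed, had log2 fold changes of 2.18 and 1.89. Col1a1, the chain of fibrillar collagen, was at 2.57 to 5.08 FPKM in sham, at 35.94 to 63.16 FPKM from 18 to 26 min, at 27.55, 40.08 and 33.67 FPKM at 28 min and at 23.07, 11.37 and 35.63 FPKM at 30 min, so that its 30 min kidneys lay below the lowest of 18 to 26 min. Col4a1 and Col4a2, the common collagen IV chains of basement membranes, had log2 fold changes of 1.61 and 1.49 at 30 min, whereas Col4a3 and Col4a4, the chains of the glomerular membrane, had -0.95 and -0.85 (these 4 were picked after their values were seen). The substrates and the members were measured in the same kidneys, and no relation between them was tested.

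Of 21 transcription factors and cytokines known to induce metalloproteinases, 11 were called higher at 30 min and 0 lower, 9 and 0 at 28 min, 7 and 0 at 26 min, where 2.16% of all genes were called higher, and 2 and 0 at 16 min. Fosl1 (Fra-1, a partner of Jun in AP-1) was the 1 of the 21 called between 26 and 28 min, where 1.50% of all genes were. It was at 0, 0.04 and 0.09 FPKM in sham, at 0.16 to 3.95 FPKM in the kidneys of 16 to 26 min, at 13.33, 10.83 and 11.81 FPKM at 28 min and at 14.82, 19.79 and 23.42 FPKM at 30 min, a log2 fold change of 4.24 ± 0.37 against sham (limma adjusted p = 1.3e-08). Its 28 min kidneys were all above the shorter times, as those of Mmp10 were. Fos, Junb and the Ets factor Etv4 had log2 fold changes of 2.65, 2.56 and 2.05 at 30 min. Junb was already at 26.44, 48.83 and 13.3 FPKM at 16 min against 7.89, 8.97 and 12.44 FPKM in sham. The level of these factors and the AP-1 letters in the promoters were not tested for any relation to the members.

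The genes most like each member were found by Pearson's r of the 9 mean levels, over 12340 genes, as a description in which the 9 points are the same 27 kidneys for every gene. Mmp14 was most like Cald1, Tyk2 and Flna (r = 0.990, 0.989 and 0.989), of which Cald1 and Flna bind actin filaments. Timp1 was most like Slc9a5, a gene listed as 0s, and Sh3gl1 (0.988, 0.987 and 0.986), and Mmp10 was most like Fyb2, Prkab2 and Tmbim1 (0.993 each). Mmp7 was most like Rab3gap2, Gatad2a and Ptp4a2 (0.993, 0.990 and 0.989) and Mmp9 like Osbpl10, Psmc1 and Mapk1ip1l (0.990, 0.989 and 0.987). Mmp3 was most like S1pr2, Cd248 and Cmtm3 (0.957, 0.955 and 0.952), Mmp2 like Nol3, Rhpn1 and Hes6 (0.968, 0.963 and 0.960), Timp2 like Adam15, Smarcd3 and Adamts10 (0.959, 0.955 and 0.941), and Timp3 like Atp6v1a, Spag9 and Snrnp200 (0.978, 0.976 and 0.972).

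The 3 genes most like Mmp13 were Usp18, Rtp4 and Oasl2 (r = 0.994, 0.990 and 0.988), all known as interferon-induced. The likeness held for the means and not within the sham group. Usp18 was at 1.39, 9.51 and 10.66 FPKM in the sham kidneys, Rtp4 at 3.83, 43.74 and 50.28 FPKM and Oasl2 at 3.26, 45.98 and 46.22 FPKM, so that the first sham kidney lay within the range of the ischemic kidneys for Usp18 and Rtp4 and below it for Oasl2, and the other sham kidneys lay above it for all 3 genes. Mmp13 was at 0.79 FPKM in that first sham kidney, the highest of the 27 kidneys.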

How the data were processed

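Total RNA of 27 left kidneys was sequenced on DNBSEQ by the authors. They deposited linear FPKM per gene symbol and kidney with 2 decimals, a unit that the study names RPKM. The submitters' processing notes name Bowtie2, RSEM, DESeq2 and the build GRCm38.p6, with no versions. Read counts were not used here, so depth is unknown and precision was judged from the 3 mice per time.

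Groups follow the ischemia times of the labels. Log2(FPKM + 1) was quantile-normalized over 27 kidneys and fitted in limma 3.58.1 (R 4.3.3) with 1 mean per time; 18188 genes exceeded 0 FPKM in 3 or more kidneys and were tested. Reading calls by the adjusted p alone was added after seeing the data, as was the search for TATAAA. The members and lists were chosen with earlier results of these data known. Named genes were all members, up to 4 called genes per list with the largest absolute log2 fold change at 30 min, and the 3 genes most like each member (mean of 1 FPKM or more). The steps were tested on simulated data. Coordinates are from GENCODE M21 (GRCm38) and promoters from RefSeq. Protein sequences were not analysed here. Some items of the lists are not reported here. The alternatives are given in the closing section. Figures were drawn with matplotlib 3.10.9.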

Additional observations from a re-analysis of the deposited data

How the results depend on the processing

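No result turned its direction under any alternative run. The number of members called was 1, 2, 1, 1, 1, 1, 4 and 4 at 16, 18, 20, 22, 24, 26, 28 and 30 min against sham. A pseudocount of 0.1 FPKM gave 3, 4, 4, 3, 4, 4, 7 and 7, and 1 between 26 and 28 min and 1 between 28 and 30 min, where the counts had been 0. Rescaling FPKM to a constant sum in place of quantile normalization gave 2 at 16, 3 at 20, 2 at 22, 3 at 24 and 3 at 26 min, and no quantile normalization gave 2 at 20, 3 at 24 and 2 at 26 min. A filter of 1 FPKM or more in at least 3 kidneys gave 1 at 18, 2 at 28 and 3 at 30 min, since Mmp9, Mmp10 and Mmp13 were then not tested and Mmp3 (0.94, 0.88 and 0.97) and, at 28 min, Mmp7 (0.98) lay under the fold threshold. Fitting only the groups compared gave 0 at 16 min and, without Mmp3, 3 at 28 min, and Timp2 then did not pass at 30 min against sham or 28 min (limma adjusted p = 0.18 and 0.20). Leaving out each kidney in turn gave 0 to 1 members at 16 min (0 without the second 16 min kidney), 2 to 3 at 18 min (3 without the first sham or the second 18 min kidney), 1 to 2 at 20 min (2 without the third 20 min kidney), and 1 to 2 at 24 and at 26 min (2 without the third sham kidney). At 28 min it gave 3 to 4, with Mmp3 lost without the first or second sham or the third 28 min kidney, and at 30 min 4 to 5 (5 without the second 30 min kidney), where Mmp3 was lost and Mmp10 gained without the third 30 min kidney. With the third kidneys of 16 and 30 min left out together, a choice made after seeing the data, Mmp3 at 30 min was 0.81. The causes were not tested beyond what each alternative changes by construction.

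A replicate block, by the number in the labels, changed none of the counts of members called (1, 2, 1, 1, 1, 1, 4 and 4), and gave 1543 of all genes at 28 min where 1542 were called without it. The numbers do not pair the mice: same-number kidneys correlated from -0.42 to 0.48 in their deviations from the group means (median -0.0087), and 8 of 27 kidneys correlated best with their own number. Depth is unknown for FPKM, so the counting error of levels near 0, such as those of Mmp10 up to 26 min, could not be estimated here.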
